A study of Mus musculus with 4 samples.

Results

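Sites at which FLAG-tagged Pax6 and FLAG-tagged Etv6 were found together inside chromatin marked by dimethylation of histone H3 at lysine 4 (H3K4me2) were described from chromatin immunoprecipitation sequencing (ChIP-seq) peak lists of mouse neural progenitor-like cells. A site was taken from the Pax6 list on chromosomes 1 to 19. It had to overlap an Etv6 peak by at least 1 bp and no peak of a further FLAG library called EGFP_OK, and its summit had to lie inside an H3K4me2 peak. The sites were thus chosen by peak calls in all 4 lists. The rule held for 4095 of the 16233 Pax6 peaks on these chromosomes, and these are called the shared marked sites. They were compared with 4995 sites that meet the same conditions outside H3K4me2 (shared unmarked sites) and with 1995 sites inside H3K4me2 that also had an EGFP_OK peak (triple marked sites).

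Pax6 is a paired-box and homeobox transcription factor that directs development of the forebrain and the eye and is active in neural progenitors. Etv6 belongs to the ETS family, whose members bind DNA through an ETS domain, and it is known mostly as a repressor. H3K4me2 marks promoters and enhancers that are active or poised. At such elements the mark sits on the nucleosomes beside the bound factors, and the bound stretch itself is often poor in nucleosomes.

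Every library was made from progenitor-like neural cells that had been obtained from 129/SvJ embryonic stem cells and were used at passages 15 to 18. The labels name no treatment beyond growth medium with EGF and FGF-2. The M2 antibody, which recognises the FLAG tag, was used for the Pax6, Etv6 and EGFP_OK libraries, and an antibody to H3K4me2 for the remaining one. The titles of the Pax6 and Etv6 libraries name NS cells. Those of the EGFP_OK and H3K4me2 libraries name N31, and the H3K4me2 title adds Oct4, EGFP and 0 hr. The mark was therefore measured in a library whose title differs from those of the factors, and a difference between cells cannot be told apart from one between factors or marks. The protein that carries the tag in EGFP_OK, how the tagged factors were introduced and whether a line is 1 clone are not given in the sources used here. Each group held 1 library without a control library. No value has a replicate error, no test between conditions was possible, and the 95% intervals below are exact (Clopper-Pearson) binomial intervals, or order-statistic intervals for medians. These intervals reflect counting error alone, and peaks that lie near each other are not independent of one another.

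The Pax6 library was the shallowest, with 5288154 tags kept after removal of duplicates, against 21498324 to 24550365 in the others. Its redundant rate was 81%, against 16% to 39%. The lists held 16233 Pax6, 30368 Etv6, 27730 EGFP_OK and 48520 H3K4me2 peaks on chromosomes 1 to 19.

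The choice of sites can be followed step by step. Of the 16233 Pax6 peaks, 72.8% had an Etv6 peak, 79.7% had no EGFP_OK peak and 44.3% had their summit in H3K4me2. The whole rule kept 25.2%. Counted from the other lists, the shared marked sites took up 4079 Etv6 peaks, or 13.4% of that list, and 4067 H3K4me2 peaks, or 8.38%. These shares follow from the rule and are given as a description.

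Most of the sites lay well within each limit of the rule. In 62.1% of them the shorter of the Pax6 and Etv6 peaks was covered whole. The Etv6 summit lay in the same H3K4me2 peak as the Pax6 summit in 97.8% of the sites. The rule did not ask for this, but it largely follows from the overlap of the Pax6 and Etv6 peaks. Along the H3K4me2 edge, 72 sites had their Pax6 summit less than 50 bp inside, with medians of 23 Pax6 tags and 80 Etv6 tags. Another 81 summits lay up to 50 bp outside and were left out, with medians of 20 and 76 tags. An EGFP_OK peak came within 500 bp of 95 of the sites without overlapping (median 23 Pax6 tags). The 19 sites left out for an EGFP_OK overlap of at most 100 bp also had a median of 23 Pax6 tags. Of the marked sites, 6 overlapped Etv6 by at most 100 bp, and 5 marked Pax6 peaks lay within 100 bp of an Etv6 peak without touching it.

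Pax6 peaks at the shared marked sites were of like height to those at unmarked sites, while the Etv6 peaks held more tags. The Pax6 peaks ranged from 10 to 260 tags, with a median of 21 (95% interval 21 to 22) and quartiles of 15 and 32. The shared unmarked sites had a median of 21 tags (20 to 21) and the triple marked sites 24 (23 to 24). The matched Etv6 peaks ranged from 22 to 547 tags, with a median of 85 (83 to 87). This was more than the 67 tags (66 to 68) of the unmarked sites and close to the 90 (87 to 93) of the triple marked sites. The medians of all peaks on these chromosomes were 19 tags for Pax6 and 54 for Etv6. Height bears on whether a peak is called in both lists, so the excess over the whole lists is part of how the sites were chosen.

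The authors' fold enrichment sets the summit against the local background in the same library. At the shared marked sites it ran from 3.63 to 22.2 in Pax6, with a median of 10.4 (10.3 to 10.5), against 10.9 (10.8 to 11.1) at unmarked sites. In Etv6 it ran from 2.88 to 18.6, with a median of 7.10 (7.00 to 7.19), against 6.98 (6.89 to 7.04), whose intervals overlap. The larger Etv6 tag counts went with wider peaks, since the median Etv6 width was 1348 bp at marked and 1193 bp at unmarked sites. Widths of the Pax6 peaks were 1056 and 1013 bp.

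Relative to depth, Pax6 tags outnumbered Etv6 tags at most shared marked sites, but by less than at unmarked sites. The ratio of Pax6 to Etv6 tags, each divided by the kept tags of its library, had a median of 1.21 (1.19 to 1.23) and quartiles of 0.896 and 1.60. It was 1.42 (1.404 to 1.44) at shared unmarked sites and 1.23 (1.197 to 1.26) at triple marked sites. A ratio over 1 was found at 66.8% of the marked sites (65.4 to 68.3), 79.7% of the unmarked sites (78.5 to 80.8) and 73.6% of all Pax6 peaks with an Etv6 peak. The interval of the marked sites lay apart from that of the unmarked sites and overlapped that of the triple marked sites, 68.9% (66.8 to 70.9). The lowest values at the shared marked sites were 1.89 Pax6 and 0.914 Etv6 tags per 1000000 kept tags. The higher floor of the Pax6 list favours ratios over 1, so these shares depend in part on the peak calls. Tags were counted over whole peaks, so peak width also enters the ratio. Median Pax6 and Etv6 widths were 1056 and 1348 bp at marked sites, and 1013 and 1193 bp at unmarked sites. A ratio per bp was not computed.

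**Figure D1:**
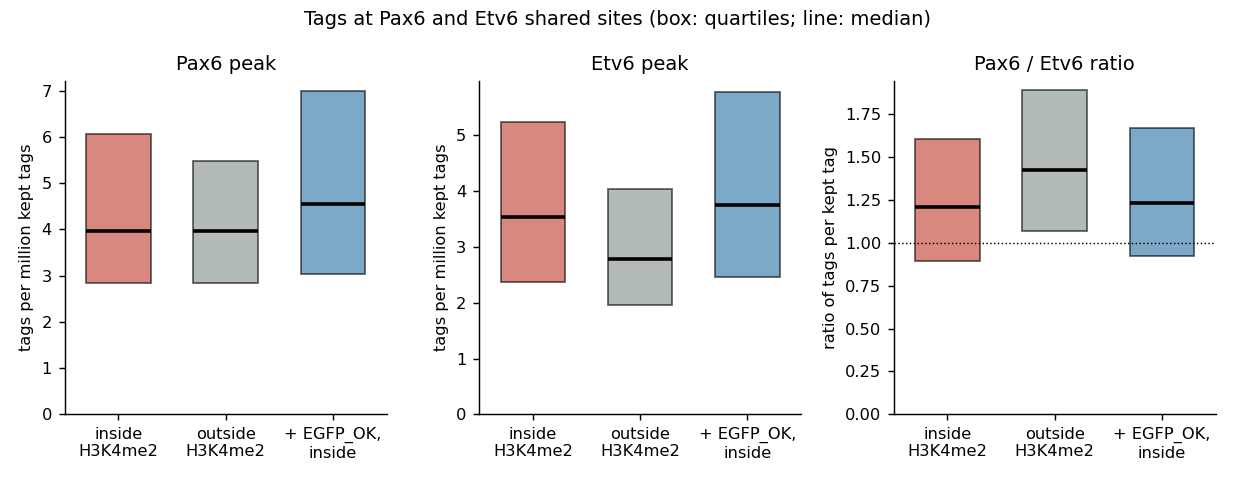
Tags per 1000000 kept tags in the Pax6 peak (left) and the matched Etv6 peak (middle), and their ratio (right), for shared marked sites (red), shared unmarked sites (grey) and triple marked sites (blue). Boxes span the quartiles over sites, black lines are medians and the dotted line marks a ratio of 1. Pax6 medians of marked and unmarked sites are equal at 3.97, whereas the Etv6 median is 3.53 at marked and 2.78 at unmarked sites.

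Among sites with like Etv6 counts the difference in ratio was smaller and kept its direction in all 6 ranges of Etv6 tags. With 60 to 79 Etv6 tags the median ratio was 1.23 at 752 marked and 1.36 at 1004 unmarked sites. With 150 tags or more it was 0.893 at 685 marked and 1.01 at 419 unmarked sites, and with 39 tags or fewer it was 1.93 and 2.02. No called Pax6 peak had under 10 tags, so low ratios could not be seen where Etv6 tags were few. Peak widths were not held alike in these ranges.

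Seen from the Etv6 list, a Pax6 peak was found at a lower share of Etv6 peaks of a given tag count, up to 99 tags, when the Etv6 summit lay inside H3K4me2, but hardly so at a given fold enrichment. Over all 24481 Etv6 peaks without EGFP_OK the share with a Pax6 peak was 36.9%. It was 35.6% (34.7 to 36.4) of the 11528 inside H3K4me2 and 38.1% (37.3 to 38.99) of the 12953 outside. At 60 to 79 tags it was 37.8% (35.7 to 39.96) inside and 50.7% (48.4 to 52.9) outside, and at 80 to 99 tags 50.1% (47.1 to 53.0) and 65.1% (62.1 to 67.9). At 150 tags or more the shares were 84.5% (81.8 to 87.0) and 83.4% (79.8 to 86.6), whose intervals overlap. With peaks grouped by the authors' fold enrichment in place of tags the gap nearly closed. In the lowest of 8 ranges of fold the shares were 20.8% (18.8 to 22.8) inside and 26.2% (23.9 to 28.5) outside. In the other 7 ranges the intervals overlapped, with 65.2% (62.7 to 67.7) and 67.3% (64.9 to 69.6) in the highest.

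**Figure D2:**
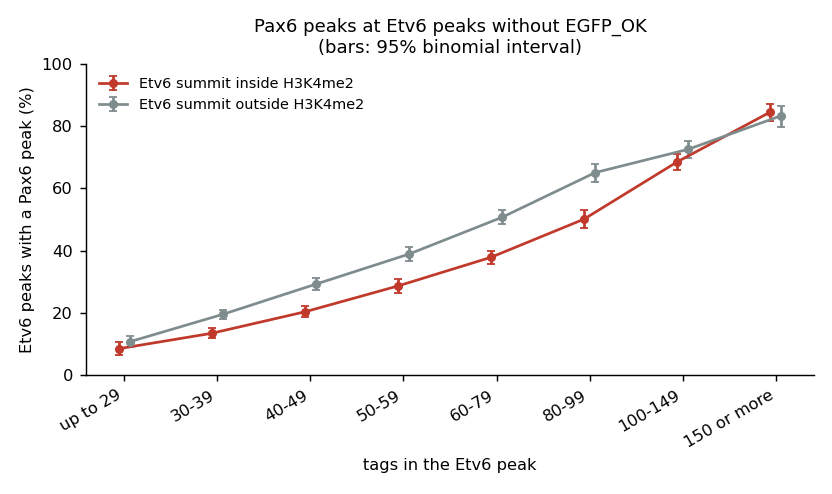
Share of Etv6 peaks without EGFP_OK that overlap a Pax6 peak (vertical axis, in percent) by the tags in the Etv6 peak (horizontal axis), for Etv6 summits inside (red) and outside (grey) H3K4me2. Bars are 95% binomial intervals. From 30 to 99 tags the grey points lie above the red ones with intervals apart, and at 150 tags or more the points meet at 84.5% and 83.4%.

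The summits of Pax6 and Etv6 lay close together at the shared marked sites. The distance between them ran from 0 to 3620 bp, with a median of 80 bp (77 to 83) and quartiles of 36 and 157 bp. Both summits fell within 20 bp at 14.4% of the sites, within 50 bp at 34.7% and within 100 bp at 57.9% (56.4 to 59.4), against 60.6% within 100 bp for all Pax6 peaks with an Etv6 peak. At shared unmarked sites the median was 70 bp (68 to 73) and 64.0% (62.6 to 65.3) were within 100 bp. At triple marked sites the values were 86 bp (80 to 90) and 56.0% (53.8 to 58.2). Summits more than 500 bp apart made up 6.06% (5.34 to 6.83) of the shared marked, 3.78% (3.27 to 4.35) of the unmarked and 8.62% (7.43 to 9.94) of the triple marked sites. The medians of shared marked and unmarked sites differed by 10 bp (4 to 15). With a score of at least 100 in all lists the difference was 4 bp, and its range, -4 to 13, included 0.

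The difference was also seen at like Etv6 counts. In each of the 6 ranges of Etv6 tags the median distance was greater at marked than at unmarked sites, for instance 83 bp against 63 bp at 80 to 99 tags and 71 bp against 66 bp at 100 or more and under 150 tags. Within the marked sites the distance was shorter where Pax6 peaks were higher. The quartile of sites with the fewest Pax6 tags, 10 to 15, had a median of 86 bp, and the quartile with the most, 32 to 260, a median of 68 bp. The share within 100 bp was 54.1% (51.0 to 57.2) and 62.5% (59.5 to 65.5) in these quartiles.

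**Figure D3:**
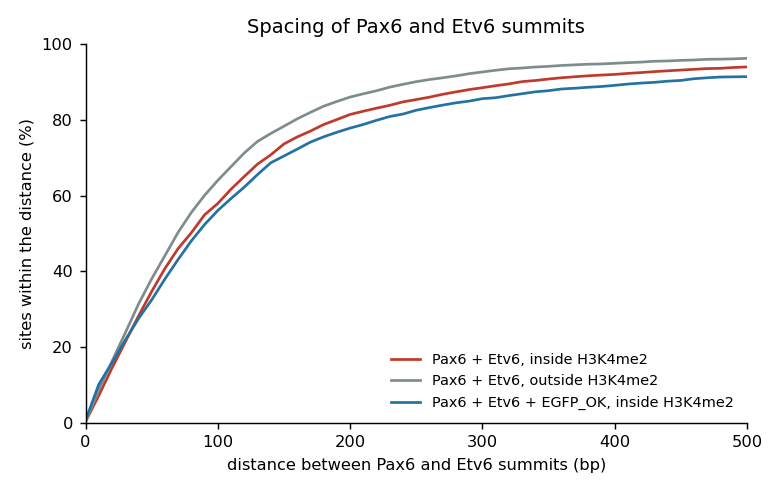
Cumulative share of sites (vertical axis, in percent) whose Pax6 and Etv6 summits lie within a given distance (horizontal axis, in bp), for shared marked sites (red), shared unmarked sites (grey) and triple marked sites (blue). At 100 bp the curves stand at 57.9%, 64.0% and 56.0%.

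Within the H3K4me2 peak, the shared marked sites were sparse at the summit of the mark and gathered on both sides of it. The Pax6 summit lay a median of 362 bp (354 to 371) from the H3K4me2 summit. It was more than 200 and at most 500 bp away at 50.0% of the sites (48.4 to 51.5), while this range held 27.6% of the bases of the same peaks. Within 100 bp lay 8.03% of the Pax6 summits (7.22 to 8.91), against 10.5% of the bases, and beyond 1 kb 8.18% (7.36 to 9.06), against 23.5%. Over all Pax6 summits in H3K4me2 the shares were 46.6% at 200 to 500 bp and 9.11% within 100 bp. Of the 4095 sites, 2025 lay to the left of the mark's summit in genome coordinates, which carry no gene orientation. Nearly all H3K4me2 peaks with such a site held only 1, so both sides describe the pooled sites and not single peaks.

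The Etv6 summits lay a median of 80 bp from the Pax6 summits, so their placement largely follows from that of Pax6 and is no separate result. Of the 4004 that lay in the same H3K4me2 peak, 49.2% (47.6 to 50.8) were over 200 and at most 500 bp from its summit and 7.72% (6.91 to 8.59) within 100 bp. Pax6 and Etv6 lay on the same side of the H3K4me2 summit at 92.8% of these sites (91.9 to 93.6). The Etv6 summit was the nearer of the 2 at 50.8% (49.2 to 52.4), and the interval includes an even split.

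At other sites inside H3K4me2 the share near the mark's summit was closer to that of the bases. Of the triple marked sites, 9.07% (7.85 to 10.4) of the Pax6 summits lay within 100 bp, against 9.35% of the bases, and 43.0% (40.8 to 45.2) at 200 to 500 bp, against 23.5%. Etv6 peaks inside H3K4me2 with neither Pax6 nor EGFP_OK had 11.97% (11.2 to 12.7) of their 7429 summits within 100 bp, against 11.2% of the bases. Of the 865 Pax6 peaks inside H3K4me2 that met neither Etv6 nor EGFP_OK, 12.9% (10.8 to 15.4) had their summit there, against 12.3%. At 200 to 500 bp lay 43.2% (42.0 to 44.3) of these Etv6 summits, against 29.1% of the bases. For these Pax6 summits it was 40.7% (37.4 to 44.1), against 30.3%. The gathering at that distance was thus seen in all 3 other classes too. Within 100 bp, the share of the shared marked sites lay below that of the bases by more than its interval. Those of the 3 other classes did not. There the interval of the triple marked sites overlapped that of the shared marked sites, and the difference between classes was not tested. The classes also differ in number and in peak height. The 865 Pax6 peaks had a median of 14 Pax6 tags, against 21 at the shared marked sites.

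**Figure D4:**
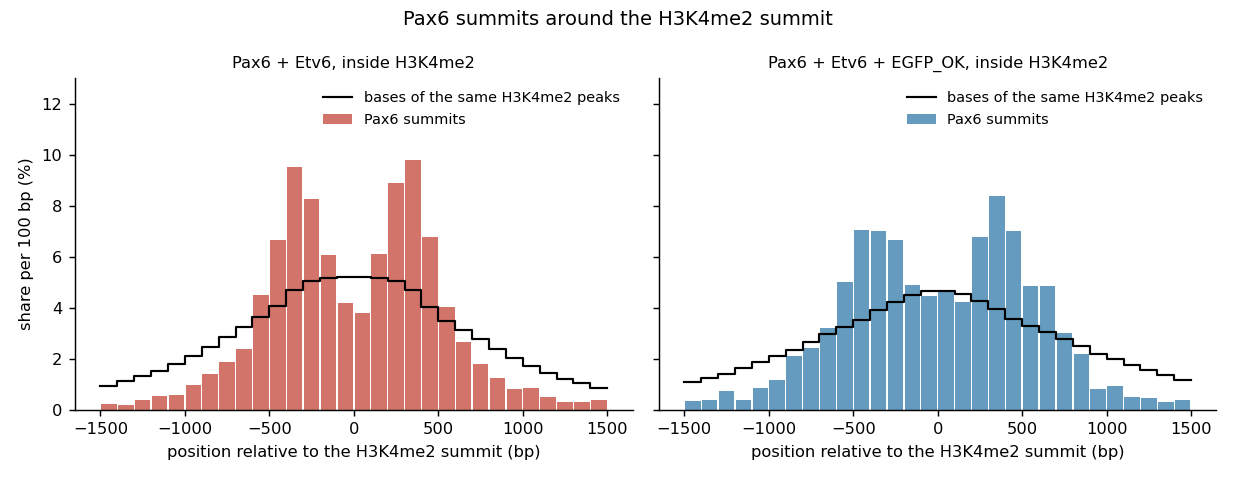
Share of Pax6 summits per 100 bp (bars, in percent) by position relative to the summit of the H3K4me2 peak that holds them, for shared marked sites (left, red) and triple marked sites (right, blue). The black line is the share of the bases of the same H3K4me2 peaks. Both panels have 2 humps at 200 to 500 bp, and in the left panel the bars next to the summit fall below the line.

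The shortfall near the mark's summit was found in 3 of 4 width classes of H3K4me2 peaks and was larger, relative to the bases, at higher Pax6 peaks. In H3K4me2 peaks over 3000 bp, 3.36% (2.36 to 4.61) of 1073 Pax6 summits lay within 100 bp, against 4.98% of the bases, and 40.3% (37.3 to 43.3) at 200 to 500 bp, against 14.8%. In peaks of up to 1500 bp the shares were 15.8% (13.5 to 18.3) of 911, against 18.9%, and 53.3% (50.0 to 56.6), against 42.3%. In peaks over 1500 and up to 2000 bp the share within 100 bp was 10.1% (8.16 to 12.3) of 851, and its interval included the 11.5% of the bases. In the quartile with the most Pax6 tags, 5.57% (4.24 to 7.15) lay within 100 bp, against 9.15% of the bases. In the quartile with the fewest it was 10.3% (8.46 to 12.3), against 11.6%, and in the next 9.86% (8.11 to 11.9), against 10.9%. In both of these lower quartiles the interval included the share of the bases. Relative to the edges, 44.8% of the sites (43.3 to 46.3) had the Pax6 summit in the middle one of 5 equal segments of the H3K4me2 peak, and 5.96% and 6.76% had it in the outermost segments.

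The H3K4me2 peaks that held shared marked sites were wider than the whole list, had a lower fold enrichment and were of like density. Their median width was 2167 bp (2131 to 2202), against 1638 bp (1628 to 1649) for all H3K4me2 peaks, and 25.8% of them were wider than 3 kb, against 14.6%. Their median count was 159 tags (154 to 164), against 122 for all, but their median fold enrichment was 5.15 (5.08 to 5.22), against 5.82 (5.79 to 5.84). H3K4me2 peaks with a triple marked site and no shared marked site were wider still, at 2742 bp (2649 to 2819), with 260 tags (249 to 272) and 5.35-fold (5.28 to 5.44). Per kb of peak, the median was 70.2 tags (69.1 to 71.4) with a shared marked site, 69.3 (68.9 to 69.7) over all H3K4me2 peaks, 62.3 (61.9 to 62.8) with no FLAG summit and 91.4 (89.9 to 93.7) with a triple marked site. The median score was 180.01 (175 to 185) with a shared marked site and 173 (171 to 175) over all. A wide peak offers more room for a summit, so widths were held alike in the next comparison.

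At like widths, H3K4me2 peaks with a shared marked site carried fewer tags per kb than those with no FLAG summit. The medians were 62.6 and 77.5 tags per kb at widths over 1500 and up to 2000 bp, 72.9 and 91.0 at over 2000 and up to 2500 bp and 94.6 and 108 above 4000 bp. Only up to 1000 bp were they nearly equal, at 43.8 and 43.9. H3K4me2 peaks whose only FLAG summits were of Etv6 had 71.0 tags per kb at over 1500 and up to 2000 bp and 112 above 4000 bp, and those with a triple marked site had 72.0 and 109.

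The share of H3K4me2 peaks with a shared marked site was highest at middle scores and low at both ends. It was 4.60% (4.02 to 5.22) in the lowest decile by the peak caller's score, 10.6% (9.72 to 11.5) in the fifth decile and 5.94% (5.29 to 6.64) in the highest, against 8.38% overall. The share with a triple marked site instead was greatest in the highest decile, at 8.26% (7.50 to 9.08), and so was the share with Etv6 summits only, at 22.9% (21.7 to 24.1). At widths of over 1500 and up to 2000 bp the share with a shared marked site was 11.5% (10.1 to 13.01) in the lowest quintile by score, 12.3% (10.9 to 13.9) in the next and 4.22% (3.37 to 5.21) in the highest. At over 2000 and up to 3000 bp it was 14.0% (12.5 to 15.5) in the lowest quintile, 16.8% (15.2 to 18.4) in the next and 5.48% (4.55 to 6.53) in the highest.

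In the other classes the share was not lower in the highest than in the lowest quintile at like widths, and the difference between classes was not tested. The share with a triple marked site was 2.06% (1.47 to 2.79) in the lowest and 2.83% (2.14 to 3.67) in the highest quintile at over 1500 and up to 2000 bp. The share with Etv6 summits only was 14.3% (12.7 to 15.9) and 14.7% (13.2 to 16.4) there, and 16.5% (14.96 to 18.2) and 24.2% (22.4 to 26.1) at over 2000 and up to 3000 bp. Since the rule leaves out sites with EGFP_OK, Pax6 and Etv6 sites inside H3K4me2 were also counted with or without it. Their share at over 1500 and up to 2000 bp was 13.6% (12.1 to 15.2) in the lowest and 7.05% (5.95 to 8.28) in the highest quintile, so the share was also lower there without that condition.

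**Figure D5:**
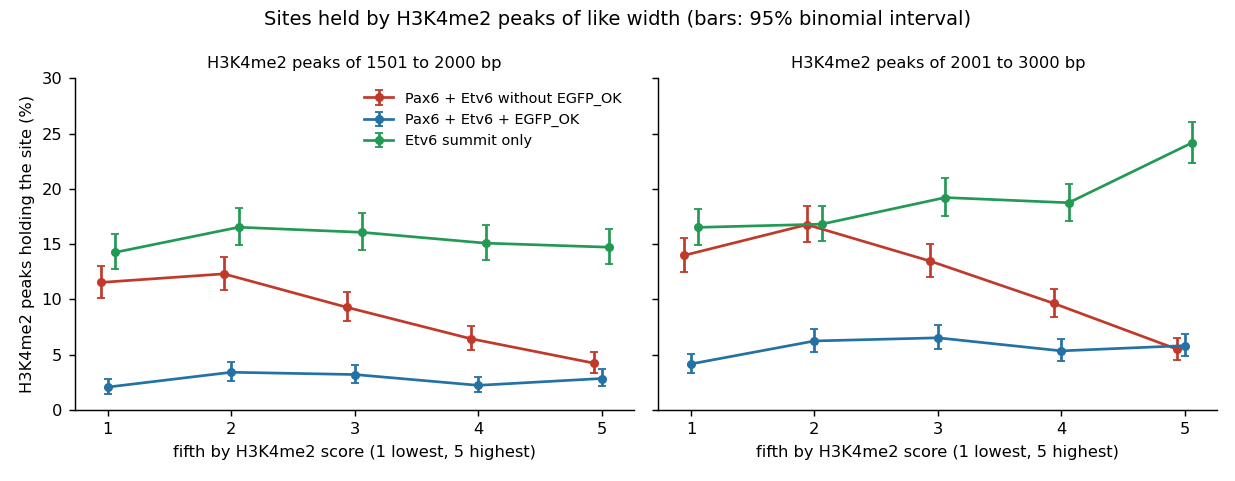
Share of H3K4me2 peaks that hold a shared marked site (red), a triple marked site (blue) or Etv6 summits only (green), in percent, by quintiles of the H3K4me2 score at widths over 1500 and up to 2000 bp (left) and over 2000 and up to 3000 bp (right). Bars are 95% binomial intervals. The red share goes from 11.5% to 4.22% on the left and from 14.0% to 5.48% on the right between the lowest and the highest quintile.

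Among Pax6 peaks, the shared marked sites made up 20.6% (18.6 to 22.6) of the lowest decile by score and 30.3% (28.1 to 32.6) of the highest. Shared unmarked sites went from 20.1% (18.2 to 22.1) to 36.6% (34.2 to 38.97) and triple marked sites from 9.17% (7.81 to 10.7) to 20.6% (18.7 to 22.7) over the same deciles. Height bears on whether a peak is called in both lists, so the rise by score is in part how these sites were chosen. By the authors' fold the direction of the shared marked sites turned, with 28.7% (26.5 to 30.96) in the lowest and 23.4% (21.4 to 25.5) in the highest decile. Triple marked sites went from 16.9% (15.1 to 18.8) to 13.5% (11.9 to 15.3), whose intervals overlap. Shared unmarked sites still rose by fold, from 24.3% (22.2 to 26.4) to 37.9% (35.5 to 40.3). An H3K4me2 peak rarely held more than 1 shared marked site. Of the 4067 that held any, 28 held 2, or 0.688% (0.458 to 0.994). The Pax6 peaks had a median width of 1056 bp and these H3K4me2 peaks 2167 bp, which limits the room for more. Other classes were not compared in this.

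Along the chromosomes, 57.3% of the shared marked sites (55.7 to 58.8) had another within 100 kb, and 1.76% had one within 5 kb. The median distance to the nearest other one was 72658 bp (68358 to 78675), with quartiles of 25848 and 204482 bp. Between sites of the same class the median was 60670 bp (57725 to 63966) for unmarked and 201271 bp (176923 to 222415) for triple marked sites. The classes differ in number, which bears on this distance, and no random placement was compared. Windows of 100 kb held at most 5 sites, and 8 windows held 5. One on chromosome 3 at 37700001 to 37800000 had the highest peaks of these windows, with 25 to 121 Pax6 tags and 157 to 289 Etv6 tags at its 5 sites. It held 7 Pax6, 9 Etv6, 1 EGFP_OK and 7 H3K4me2 peaks in all. A neighbouring window at 38100001 to 38200000 held 5 sites of 14 to 37 Pax6 tags among 11 H3K4me2 peaks. A window on chromosome 6 at 51000001 to 51100000 held 5 sites of 18 to 72 Pax6 tags, with all but 1 of its 6 Pax6 peaks among them and 0 EGFP_OK peaks. These windows were chosen after their values were seen.

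The nearest EGFP_OK peak lay closer to marked than to unmarked sites. The rule left out overlaps with EGFP_OK, and the gap at other places of the genome was not measured. The median gap was 18671 bp (17853 to 19732) at marked and 22993 bp (21916 to 24304) at unmarked sites, and 4.20% of the marked sites (3.61 to 4.86) had an EGFP_OK peak at less than 1 kb. A gap of 100 kb or more was found at 6.69% (5.94 to 7.50) of the marked and 12.9% (11.97 to 13.9) of the unmarked sites.

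The chromosomes held unequal shares of the sites. Chromosome 2 held the most, 9.499% (8.62 to 10.4), close to its 8.92% (8.49 to 9.37) of all Pax6 peaks and above its 7.45% (7.22 to 7.69) of the H3K4me2 peaks. Chromosome 14 held 2.00% (1.60 to 2.48), which was 0.496 times its share of H3K4me2 peaks, 4.04% (3.86 to 4.21), and 0.679 times its share of all Pax6 peaks, 2.95% (2.70 to 3.22). Its interval overlapped those of the Etv6 peaks, 2.55% (2.38 to 2.74), and of the shared unmarked sites, 2.42% (2.01 to 2.89). Titles of the factor and mark libraries differ (NS and N31), and copy number was not measured.

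Single sites were named by fixed ranking rules, with positions in the mouse build mm9. The 5 sites with the best ranks in both factor lists had high Pax6 and Etv6 peaks in H3K4me2 peaks of middling rank. The first, at chr10:27132834-27134639, held 113 Pax6 tags (11.1-fold) and 280 Etv6 tags (7.92-fold) in an H3K4me2 peak of 142 tags that ranked 27835 in its list. Its Pax6 and Etv6 summits were 99 bp apart, 701 bp from the mark's summit for Pax6. At chr3:62940869-62943213 there were 162 Pax6 and 354 Etv6 tags in an H3K4me2 peak of 65 tags. The site at chr9:79326368-79327972 had the highest fold of the 5 in both lists, 17.1 for Pax6 (105 tags) and 15.7 for Etv6 (370 tags). The remaining 2 lay at chr3:37793250-37795372, with 121 Pax6 and 289 Etv6 tags, and chr1:145959703-145961369, with 96 and 314. All 5 had the Pax6 summit between 421 and 748 bp from the mark's summit, and none of their H3K4me2 peaks ranked above 21265.

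The sites of highest Pax6 fold enrichment had only 21 to 43 Pax6 tags. In the Pax6 list the first was chr11:119900929-119901635, with 22.2-fold from 23 tags over 707 bp, 154 Etv6 tags (14.3-fold) and an H3K4me2 peak of 368 tags. At chr8:46390834-46391495 the Pax6 peak reached 22.2-fold from 21 tags, with 69 Etv6 tags. The other 3, at chr8:113973569-113974554, chr5:103057967-103059144 and chr7:89254210-89255131, had 37, 43 and 27 Pax6 tags at 21.8- to 21.95-fold, and 135, 74 and 135 Etv6 tags.

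In the Etv6 list the highest fold was 18.6, at chr8:35844787-35845948, with 253 Etv6 and 50 Pax6 tags (19.6-fold). Its H3K4me2 peak was weak, with 38 tags over 803 bp. The others showed that a high Etv6 peak could go with a bare Pax6 call. At chr13:54344195-54345059 there were 151 Etv6 tags (17.6-fold) and 12 Pax6 tags (9.24-fold). At chr8:49002765-49003502 there were 236 Etv6 and 12 Pax6 tags, a ratio of 0.231 per kept tag, and at chr14:79300542-79301021 67 and 10. At chr11:100840655-100841766, by contrast, 266 Etv6 tags went with 39 Pax6 tags.

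The ratio of Pax6 to Etv6 tags per kept tag ran from 0.173 to 6.59 over the shared marked sites. Among sites with at least 20 Pax6 tags it was highest at chr15:62020929-62023594, where 181 Pax6 tags (8.88-fold) met 125 Etv6 tags (5.45-fold) with summits 2 bp apart. A pair of neighbouring sites on chromosome 4 followed among the first 5, at chr4:58682740-58684115 with 45 Pax6 and 35 Etv6 tags and at chr4:58676330-58677438 with 33 and 31. At chr13:5210790-5212338 there were 63 Pax6 and 57 Etv6 tags, and at chr8:63110169-63111995 38 and 34, the latter with summits 955 bp apart.

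Among sites with at least 20 Pax6 tags, the 5 lowest ratios were found in H3K4me2 peaks of 4545 to 6453 bp. The lowest of these, 0.257, was at chr6:108486666-108487584, with 23 Pax6 and 408 Etv6 tags in an H3K4me2 peak of 4980 bp. At chr19:8784193-8785141 there were 31 Pax6 and 431 Etv6 tags in an H3K4me2 peak of 6453 bp. At chr17:87599714-87600621, chr2:152752752-152753861 and chr6:137508505-137509649 the Pax6 peaks had 22, 25 and 26 tags and the Etv6 peaks 332, 371 and 369. In these 3 the Etv6 summit was 1679, 1812 and 1223 bp from the Pax6 summit. At all 5 sites the Etv6 peak covered the whole Pax6 peak and reached beyond it, on chromosome 19 from 8783851 to 8788740. The tag counts therefore came from stretches of unlike width that only partly cover the same bases.

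The 5 sites in the highest-ranked H3K4me2 peaks had Pax6 scores of 57.1 to 66.2, below the median of 77.8 over the shared marked sites. Their Pax6 fold ran from 7.15 to 12.4, on both sides of the median of 10.4. All but the first had fewer Pax6 tags than the median of 21. The H3K4me2 peak of rank 13, with 1069 tags over 4167 bp, held the site at chr11:116393727-116395769 with 27 Pax6 tags (7.46-fold) and 221 Etv6 tags. At chr3:107847345-107848138, in an H3K4me2 peak of 432 tags, there were 13 Pax6 and 34 Etv6 tags. The remaining 3, at chr11:101138797-101139783, chr17:46247343-46248227 and chr6:118405073-118405632, had 17, 13 and 10 Pax6 tags and 100, 52 and 42 Etv6 tags.

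Where 1 H3K4me2 peak held 2 shared marked sites, the Pax6 list often split a stretch that the Etv6 list gave as 1 peak. In the highest-scoring such H3K4me2 peak, chr15:76865503-76869737, Pax6 peaks of 17 and 21 tags at chr15:76866970-76867797 and chr15:76867823-76868791 shared an Etv6 peak of 223 tags. Their summits lay 511 bp left and 565 bp right of the mark's summit. In the H3K4me2 peak at chr11:95119157-95122817, Pax6 peaks of 12 tags each shared an Etv6 peak of 127 tags. Those at chr3:146303642-146307232 (30 and 15 Pax6 tags) and chr5:122115742-122119844 (21 and 19) likewise shared Etv6 peaks of 110 and 118 tags. In the H3K4me2 peak at chr11:81627761-81630858, Pax6 peaks of 19 and 16 tags each had an Etv6 peak of their own, with 77 and 86 tags, and lay 598 bp left and 701 bp right of the mark's summit.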

How the data were processed

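Genomic DNA of 4 ChIP-seq libraries was analysed, grouped by title. Fixation was in 1% formaldehyde (10 min), and per the labels' protocols the sheared DNA was 200 to 500 bp long. MACS 1.4.2 called peaks on each library alone with no control. Its p cutoff was 1e-05 and at most 1 tag per position was kept, per the file headers. CASAVA 1.8.1, BWA 0.6.2 and mm9 appear in the submitters' processing notes without a role. The authors deposited, per peak, a count of tags without normalization, a score of 10 times the −log10 p-value, the fold enrichment (a ratio of summit to local background), and peak length and summit position. Peaks therefore rest on the local background of the same library. The limit of 1 tag per position and the Pax6 depth hold its counts low.

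Overlaps, medians and shares were obtained with scipy 1.17.1, pandas 2.3.3 and numpy 2.4.6 under Python 3.11.15. Where several Etv6 peaks overlapped, the one with the most overlap was used (9 sites). The code recovered 2034 of 2034 planted sites among 8000 simulated Pax6 peaks. Sites named were the 5 first by worse rank over both factor lists, by fold in each list, by highest and lowest tag ratio with at least 20 Pax6 tags, by H3K4me2 rank, and by number of sites in 1 H3K4me2 peak, without chromosome 18. The sites, classes and rules were chosen with earlier results of these data known. Alternatives were a stricter score, other overlaps, other distances and leaving out the top 20 regions of each list. An mm9 genome or annotation was not used here, so genes, promoters, motifs and sequences were not analysed.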

Additional observations from a re-analysis of the deposited data

Results flagged for a closer look

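Chromosome X lay outside the rule and held 25 sites that met the rest of it. They were 6.74% of its 371 Pax6 peaks, against 25.2% on chromosomes 1 to 19. Of the Pax6 peaks on chromosome X, 62.0% (56.8 to 67.0) overlapped Etv6, against 72.8%, and 16.7% (13.1 to 20.9) had their summit in H3K4me2, against 44.3% (43.5 to 45.1). The 25 sites had medians of 16 Pax6 and 54 Etv6 tags, with 82 bp between the summits.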

How the results depend on the processing

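Of 65 values recomputed under alternatives, 47 stayed within 1.5 times (counts of sites) or within the 95% interval (other values), 18 moved and 0 changed direction. A change of direction was scored only for differences between groups. For these the wider range described above took the place of the interval. Asking for an overlap of at least 50% of the shorter peak, the nearest Etv6 summit, or leaving out the top 20 regions of any list moved none of the values run under them. These alternatives touch few sites and could move little. The overlap condition kept 4069 of 4095 sites, and only 9 sites overlapped more than 1 Etv6 peak. With a score of at least 100 in all lists there were 1123 sites, and with that score in the Pax6 list alone 1244. The values at these 1123 sites were 37 Pax6 and 126 Etv6 tags, 12.3-fold (Pax6) and 8.35-fold (Etv6), a tag ratio of 1.36 per kept tag, and summits 66 bp apart with 64.6% within 100 bp. Their H3K4me2 peaks had a median width of 2438 bp and 72.1 tags per kb, and at over 1500 and up to 2000 bp they had a difference of -19.5 tags per kb from peaks with no FLAG summit (-14.8 without the stricter score). The Pax6 summit lay 406 bp from the mark's summit, 52.2% at 200 to 500 bp and 6.32% within 100 bp. None (0%) of these H3K4me2 peaks held more than 1 site, and 8.28% of the sites were on chromosome 2. A stricter score keeps fewer and higher peaks by construction. With EGFP_OK peaks of at least that score only, the median gap to one was 43976 bp. The 10 bp by which summits lay farther apart at marked than at unmarked sites became 4 bp with the stricter score. Its range, between opposite ends of the medians' intervals, was -4 to 13 and includes 0. Windows around the summit for motifs were not run, as no mm9 genome was used here. No paired analysis was possible because each group has 1 library. The Pax6 depth limits all counts: a shared site was seen only where the Pax6 library gave at least 10 tags.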

Other observations

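Over the 4095 shared marked sites, Spearman's rho between Pax6 and Etv6 was 0.65 for tags, 0.36 for fold enrichment and 0.47 for score. The sites share their libraries and are not independent, and tags also follow peak width. Over the 4995 shared unmarked sites the values were 0.59, 0.37 and 0.42. Between Pax6 and the mark, rho changed sign with the measure of height, at -0.12 by score and 0.16 by fold enrichment. Pax6 tags against the mark's tags per kb gave -0.06. Between Etv6 and the mark, rho was 0.02 by score and 0.24 by tags. Over the 1995 triple marked sites the values, in the same order, were -0.20, 0.24 and -0.11 for Pax6 and -0.01 and 0.27 for Etv6. Of the 4067 H3K4me2 peaks with a shared marked site, 89, or 2.19% (1.76 to 2.69), also held another Etv6 summit, and 7 also held a triple marked site.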
